A study of Mus musculus with 24 samples.

Results

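The nuclear-encoded subunits of the 5 complexes of mitochondrial oxidative phosphorylation were followed in sorted bone marrow stem and progenitor cells of mice given poly(I:C) or PBS. Members were chosen by gene symbol alone, as Nduf genes of complex I, Sdh genes of complex II, Uqcr genes of complex III, Cox4 to Cox8 genes of complex IV and Atp5 genes of complex V. The rule matched 80 rows with 79 symbols among 26267 genes. Complex I had 37 rows, complex II had 4, complex III had 8, complex IV had 15 and complex V had 16. Genes reaching 10 normalized counts in 2 or more libraries were tested, 12628 in all, and 75 of the 80 rows were among them. The 5 rows below the filter were Ndufs5, Cox4i2, Cox6a2, Cox7a1 and a second row named Ndufa13, whose identifier the gene annotation assigns to a neighbouring gene, Yjefn3.

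The study measured polyadenylated RNA of LSK cells, the lineage-negative Sca-1+ Kit+ fraction of mouse bone marrow that holds stem and multipotent progenitor cells, in 24 libraries. Poly(I:C) is a synthetic double-stranded RNA that raises interferon, and PBS was its vehicle. With poly(I:C) there were 3 FancgKO, 2 FancgKO_Mdm4Tg, 2 Mdm4Tg and 3 WT libraries. With PBS there were 4 FancgKO, 3 FancgKO_Mdm4Tg, 3 Mdm4Tg and 4 WT libraries. FancgKO mice lack Fancg, a subunit of the Fanconi anemia core complex, and Mdm4Tg mice carry a transgene of Mdm4, an inhibitor of p53. The promoter of the transgene, the dose and timing of poly(I:C), and the age of the mice were not given in the sources used here. No label says that the libraries of a group came from separate mice, so p-values measure the spread between these libraries, which may be technical.

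The respiratory chain passes electrons from NADH through complex I, or from succinate through complex II, by way of coenzyme Q to complex III, cytochrome c and complex IV, and complexes I, III and IV pump protons across the inner mitochondrial membrane. Complex V, the ATP synthase, uses that gradient to make ATP. Stem cells of the bone marrow are known to rely on it less at rest than when they proliferate and differentiate. No row was found under the names of the 13 subunits encoded by mitochondrial DNA, and they were not analysed here.

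Read totals ran from 807686 to 8229715 per library (median 2583130), with 4251221 (median) in poly(I:C) and 1540400 (median) in PBS libraries. Mdm4 lay between 5023 and 7105 normalized counts in the 10 transgenic libraries and between 751 and 1293 in the 14 others. Fancg lay between 26.1 and 71.4 in the 12 FancgKO libraries and between 41.3 and 78.4 in the 12 others, and its row, a total over exons, does not check the knockout label. Kit was present at 1483 to 2414 normalized counts and Ly6a, which encodes Sca-1, at 11.7 to 45.9. The T cell gene Cd3e was at 0 in 22 libraries and the B cell gene Ms4a1 in 19. A ribosomal RNA row, CT010467.1, had 4555 to 22432 normalized counts in poly(I:C) libraries (median 8003) and 7978 to 157689 in PBS libraries (median 28839). In these bulk samples, fewer cells of a type and less RNA per cell cannot be told apart.

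Promoters of these genes are known for sites of NRF1 and of the ETS factor GABP, regulators of nuclear respiratory genes. Windows from 250 bases before to 50 after the gene start, from RefSeq on GRCm38.p6, matched 64 of the 79 symbols in 69 windows. The NRF1 letters GCGCATG, searched on both strands, were in 18.8% of the 69 windows and in 3.91% of all 32851 promoter windows. The ETS letters CCGGAAG were in 23.2% of the 69 and 8.86% of all. The YY1 letters AAGATGG were in 14.5% of the 69 and 6.34% of all. NRF1 and ETS letters occurred together in 6 members' windows, 8.7% of the 69 against 0.68% of all. They were those of Ndufb6, Sdhb, Uqcr11, Cox6a1, Atp5k and Atp5l, at least 1 for each complex, and the stretches of 5 of them that hold the matches are shown, 1 per complex, with every match to the NRF1 or ETS letters on either strand in capitals:
Ndufb6, chr4:40279482-40279663, minus strand: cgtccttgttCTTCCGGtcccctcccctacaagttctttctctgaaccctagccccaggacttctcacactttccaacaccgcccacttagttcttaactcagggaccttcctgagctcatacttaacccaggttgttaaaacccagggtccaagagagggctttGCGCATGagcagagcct
Sdhb, chr4:140961208-140961290, plus strand: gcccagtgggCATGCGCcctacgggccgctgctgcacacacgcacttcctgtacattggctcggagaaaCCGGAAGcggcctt
Uqcr11, chr10:80406808-80406897, minus strand: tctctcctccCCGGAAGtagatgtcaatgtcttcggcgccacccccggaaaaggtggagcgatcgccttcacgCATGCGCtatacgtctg
Cox6a1, chr5:115348958-115349130, minus strand: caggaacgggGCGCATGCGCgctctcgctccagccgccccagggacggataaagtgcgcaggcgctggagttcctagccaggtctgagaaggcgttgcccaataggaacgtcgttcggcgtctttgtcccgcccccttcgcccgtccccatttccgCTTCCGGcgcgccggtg
Atp5k, chr5:108434380-108434459, minus strand: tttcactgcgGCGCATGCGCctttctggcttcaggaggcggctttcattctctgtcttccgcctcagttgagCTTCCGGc
In Cox6a1 and in Atp5k, 2 NRF1 matches on opposite strands overlap in 1 run of 10 capitals. A match to these letters is a description and not a binding site.

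All 80 rows together held 0.352% to 0.650% of a library's normalized total. The 2 highest levels were those of the catalytic head of complex V, Atp5a1 with a mean of 1449 and Atp5b with 1345 normalized counts over the 24 libraries. Sdha, the flavoprotein of complex II, followed with 551, Atp5c1, the central stalk subunit of complex V, with 423, and Atp5g3, one of the genes for its c-ring, with 414. Per kb of transcript the order was Atp5b with 702, Atp5a1 with 587 and Atp5g3 with 580 normalized counts per kb, then Ndufa4 with 409 and Cox4i1 with 406. Ndufa4 bears a complex I name and is counted there, but its protein is a subunit of complex IV.

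**Figure D1:**
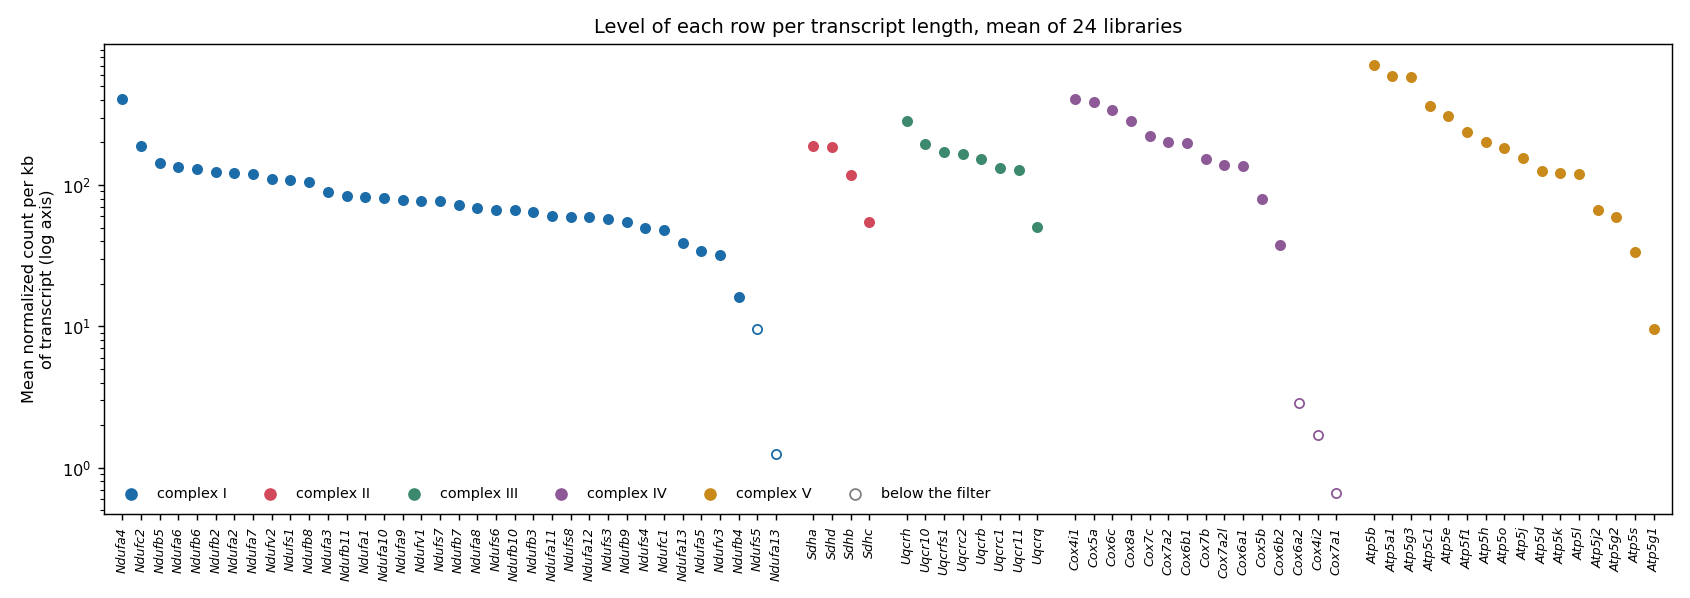
Mean normalized count per kb of transcript over 24 libraries (log axis) for the rows ordered within complexes I to V (1 not shown), with rows below the filter as open circles. Atp5b, Atp5a1 and Atp5g3 were highest, and the open circles of complex IV are the tissue-restricted isoforms Cox6a2, Cox4i2 and Cox7a1.

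Isoform families differed in level. In complex IV, Cox4i1 had 406 normalized counts per kb and Cox4i2, its lung isoform, 1.70. Cox6a1 had 137 per kb and Cox6a2, its heart and muscle isoform, 2.88. Cox6b1 had 197 per kb and Cox6b2, known from testis, 37.8. Cox7a2 had 201 per kb, Cox7a2l, which assembles supercomplexes of complexes III and IV, 139, and Cox7a1, the heart and muscle isoform, 0.665. Cox7a1 was at 0 in 17 of 24 libraries, Cox6a2 in 7 and Cox4i2 in 6. Among the 3 genes for the identical mature c-ring subunit, Atp5g3 had 580, Atp5g2 59.2 and Atp5g1 9.60 normalized counts per kb. The value of Atp5g1 is divided by an unusually long annotated transcript. All 50-base windows of the Atp5g2 transcript and 84.9% of those of Atp5l also occur in transcripts of other genes, as do 53.0% for Cox7c, 50.5% for Atp5h and 50.3% for Atp5o, so their counts are uncertain.

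The comparison of poly(I:C) with PBS, averaged over the 4 genotypes, asks what the interferon stimulus changed. Nuclear subunits were higher with poly(I:C) in every complex: 56 of the 75 tested rose and 0 fell at an adjusted p of 0.05 in limma, against 11.9% of all 12628 genes that rose and 11.6% that fell. The log2 difference was positive for 73 of 75, with a median of 0.46, against a median of 0.01 over all genes tested, of which 51.8% were positive. The summed level of all rows was 11263 to 16846 normalized counts in poly(I:C) libraries (median 14575) and 8647 to 13349 in PBS libraries (median 10338). The sums of both treatments overlapped. With the log2 level of the ribosomal RNA row as a covariate, an alternative added after the data were seen, limma called 0 of the 75 members and 1 of all genes. The members' median was then 0.27, with 69 of 75 positive and 5 at an unadjusted p under 0.05. With log2 depth as a covariate, also added afterwards, 3 members passed at a median of 0.36, and 610 of all genes did. Without the library FancgKO_Mdm4Tg poly(I:C) 8, 27 members passed. The part of ribosomal RNA content and depth in the difference was not tested apart from these fits.

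**Figure D2:**
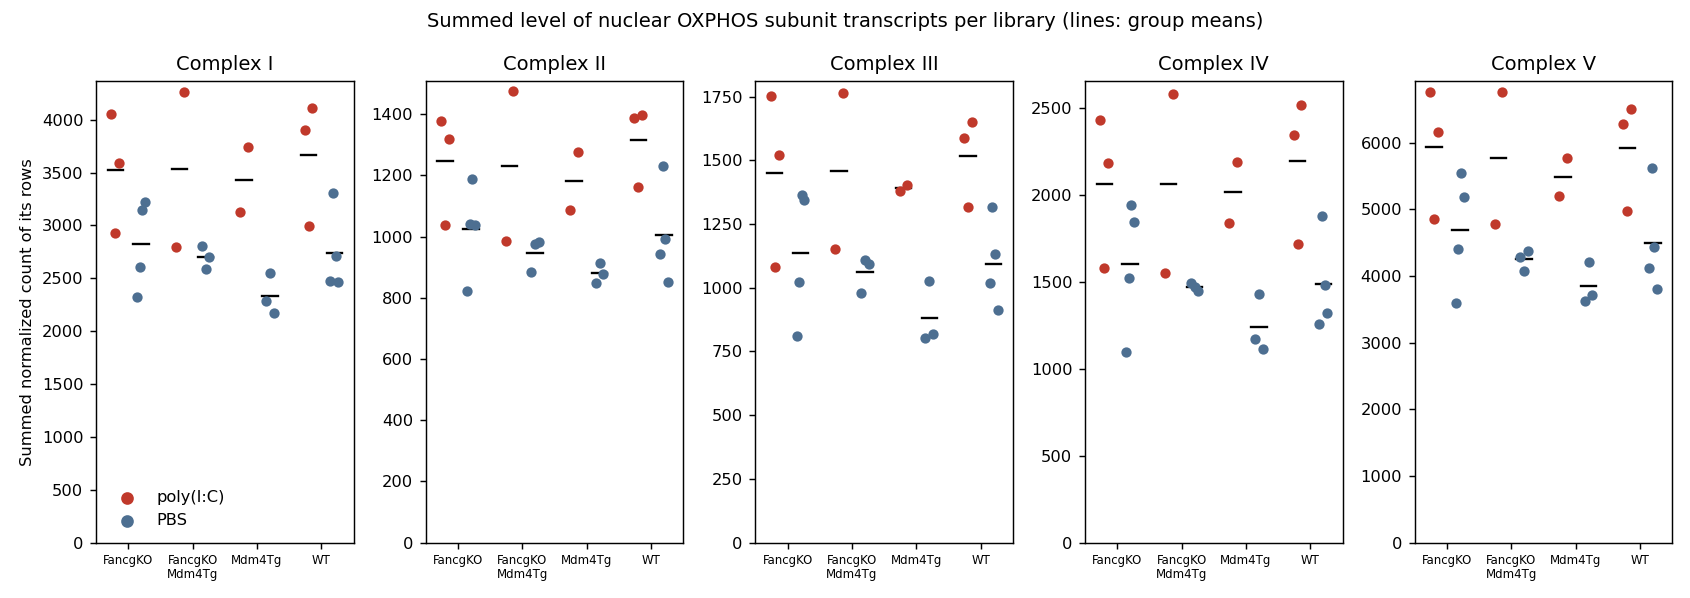
Summed normalized counts of the rows of each complex, 1 point per library, with poly(I:C) (red) left of PBS (blue) within each genotype and black lines at group means. In all 5 complexes the group means of poly(I:C) libraries lie above those of PBS libraries of the same genotype, while single points overlap in several groups.

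Complex I takes electrons from NADH. Of its 35 tested rows 23 rose and 0 fell, with all 35 differences positive and a median of 0.45. Ndufb8, an accessory subunit of the membrane arm, had 58.7 to 98.2 normalized counts in poly(I:C) libraries (median 90.5) and 45.7 to 76.1 in PBS libraries (median 60.9). It rose by 0.46 ± 0.11 on the log2 scale (SE, limma adjusted p = 0.00698). Ndufb9, also of the membrane arm, had 37.1 to 65.4 normalized counts in poly(I:C) libraries (median 48.3) and 13.3 to 47.8 in PBS libraries (median 29.5). Only part of the range was shared, and the log2 difference was 0.74 ± 0.15 (SE, limma adjusted p = 0.00218). Ndufs6, a zinc-binding accessory subunit, had 32.5 to 64.1 with poly(I:C) (median 52.4) and 13.8 to 48.2 with PBS (median 28.2). It rose by 0.81 ± 0.18 on the log2 scale (adjusted p = 0.00390). Ndufa1, a small X-linked subunit, had the largest difference among the tested members, 0.98 ± 0.23 (adjusted p = 0.00526), with 27.6 to 70.8 normalized counts in poly(I:C) libraries and 7.86 to 51.1 in PBS libraries.

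Nuclear genes for the catalytic core of complex I make its hydrophilic arm with the flavin and the iron-sulfur clusters. Ndufv2 rose by 0.45 ± 0.11 (adjusted p = 0.00667), Ndufs8 by 0.66 ± 0.17 (0.0103) and Ndufs7 by 0.53 ± 0.18 (0.0374) in limma. The flavin subunit Ndufv1 had a difference of 0.41 ± 0.15 and did not pass (adjusted p = 0.0533). Ndufs1, the largest core subunit, had 266 to 372 normalized counts with poly(I:C) (median 316) and 227 to 329 with PBS (median 258). Its ranges overlapped, and its difference was 0.21 ± 0.08 (adjusted p = 0.0558). Ndufs3 had 0.10 ± 0.12 (adjusted p = 0.551). The 9 other complex I members that did not pass were accessory subunits, from Ndufb2 at 0.09 ± 0.16 (adjusted p = 0.699) to Ndufb4 at 0.65 ± 0.30 (adjusted p = 0.116). Ndufb4, with 8.39 to 32.0 normalized counts in poly(I:C) libraries and 3.27 to 26.5 in PBS libraries, was the lowest tested row of the complex. Ndufs5, below the filter, had 2.40 to 9.17 with poly(I:C) and 0 to 11.2 with PBS.

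Complex II is succinate dehydrogenase, which also works in the tricarboxylic acid cycle and has no subunit in mitochondrial DNA. All 4 genes rose, with a median of 0.42. Sdhc, a membrane anchor, had 155 to 256 normalized counts in poly(I:C) libraries (median 210) and 122 to 186 in PBS libraries (median 146). Its difference was 0.44 ± 0.09 (adjusted p = 0.00292), although the lowest poly(I:C) libraries lay within the PBS range. The other membrane anchor, Sdhd, rose by 0.56 ± 0.13 (adjusted p = 0.00518), and the iron-sulfur subunit Sdhb by 0.40 ± 0.11 (adjusted p = 0.0123). Sdha had 509 to 680 normalized counts with poly(I:C) (median 630) and 432 to 652 with PBS (median 493). Its difference, 0.25 ± 0.08 (adjusted p = 0.0198), was the smallest of the 4.

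Complex III passes electrons from coenzyme Q to cytochrome c. Of 8 genes 7 rose, with a median of 0.52. Uqcrc2, a core subunit, had 297 to 449 normalized counts with poly(I:C) (median 372) and 221 to 379 with PBS (median 281), a difference of 0.39 ± 0.08 (adjusted p = 0.00305). Uqcrq, a small subunit beside cytochrome b, rose by 0.75 ± 0.17 (adjusted p = 0.00459). Uqcr10 rose by 0.73 ± 0.17 (adjusted p = 0.00489), and Uqcrfs1, the Rieske iron-sulfur protein, by 0.43 ± 0.13 (adjusted p = 0.0206). The other core subunit, Uqcrc1, had 162 to 395 normalized counts with poly(I:C) (median 235) and 96.6 to 314 with PBS (median 171). Its libraries spread widely within both treatments, and 0.54 ± 0.21 did not pass (adjusted p = 0.0665).

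Complex IV, cytochrome c oxidase, reduces oxygen, and its nuclear subunits surround a catalytic core made in the mitochondrion. Of 12 tested genes 10 rose, with a median of 0.58. Cox6a1 had the smallest adjusted p of all members, with 53.2 to 154 normalized counts in poly(I:C) libraries (median 114) and 39.2 to 86.2 in PBS libraries (median 52.5). The difference was 0.90 ± 0.18 (adjusted p = 0.00182), and FancgKO poly(I:C) 7, at 53.2, was the lowest of the poly(I:C) libraries. Cox5b, a zinc-binding subunit, had 57.5 to 110 with poly(I:C) (median 90.2) and 35.4 to 78.4 with PBS (median 55.3), a difference of 0.60 ± 0.13 (adjusted p = 0.00269). Cox7a2 rose by 0.69 ± 0.16 (adjusted p = 0.00412), Cox4i1, which binds ATP as a regulator, by 0.58 ± 0.14 (0.00736), and Cox5a by 0.48 ± 0.14 (0.0181). The 2 genes that did not pass were Cox6b2, at 0.41 ± 0.27 (adjusted p = 0.260), and Cox7a2l. Cox7a2l had 134 to 172 normalized counts with poly(I:C) (median 159) and 102 to 185 with PBS (median 152), so that the poly(I:C) values lay wholly inside the PBS range. Its difference was 0.08 ± 0.09 (adjusted p = 0.564).

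Complex V has a catalytic F1 head and a membrane rotor. Of 16 genes 12 rose, with a median of 0.42. All 5 genes for the F1 head rose. Atp5a1 had 1478 to 1981 normalized counts with poly(I:C) (median 1642.5) and 1042 to 1708 with PBS (median 1260), a difference of 0.41 ± 0.09 (adjusted p = 0.00467). Atp5b had 1378 to 1980 with poly(I:C) (median 1525) and 921 to 1703 with PBS (median 1131), a difference of 0.44 ± 0.11 (adjusted p = 0.00661). In both genes WT PBS 6 and FancgKO PBS 6 and 7 lay within the poly(I:C) range. Atp5e, the smallest F1 subunit, had 120 to 190 normalized counts with poly(I:C) (median 181) and 64.2 to 162 with PBS (median 100.7), a difference of 0.66 ± 0.13 (adjusted p = 0.00184). Atp5o, of the peripheral stalk, rose by 0.54 ± 0.12 (adjusted p = 0.00330), and Atp5k, the e subunit at the dimer interface, by 0.83 ± 0.21 (adjusted p = 0.00744).

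The c-ring genes differed among themselves: Atp5g1 rose by 0.60 ± 0.16 (adjusted p = 0.0127) and Atp5g3 by 0.54 ± 0.13 (adjusted p = 0.00716), while Atp5g2 stood at 0.00 ± 0.19 (adjusted p = 0.995). The difference between them was not tested. The 2 members with negative differences were both of complex V. Atp5l, the g subunit, had 37.99 to 77.8 normalized counts with poly(I:C) (median 59.8) and 37.1 to 116 with PBS (median 68.8), at -0.22 ± 0.19 (adjusted p = 0.422). Its highest PBS values, 116, 103 and 97.5, belonged to FancgKO 2, FancgKO_Mdm4Tg 2 and Mdm4Tg 8. Atp5s, a coupling factor that is not a structural subunit, had 37.0 to 58.5 with poly(I:C) (median 47.3) and 30.7 to 71.6 with PBS (median 52.2), at -0.11 ± 0.13 (adjusted p = 0.573).

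**Figure D3:**
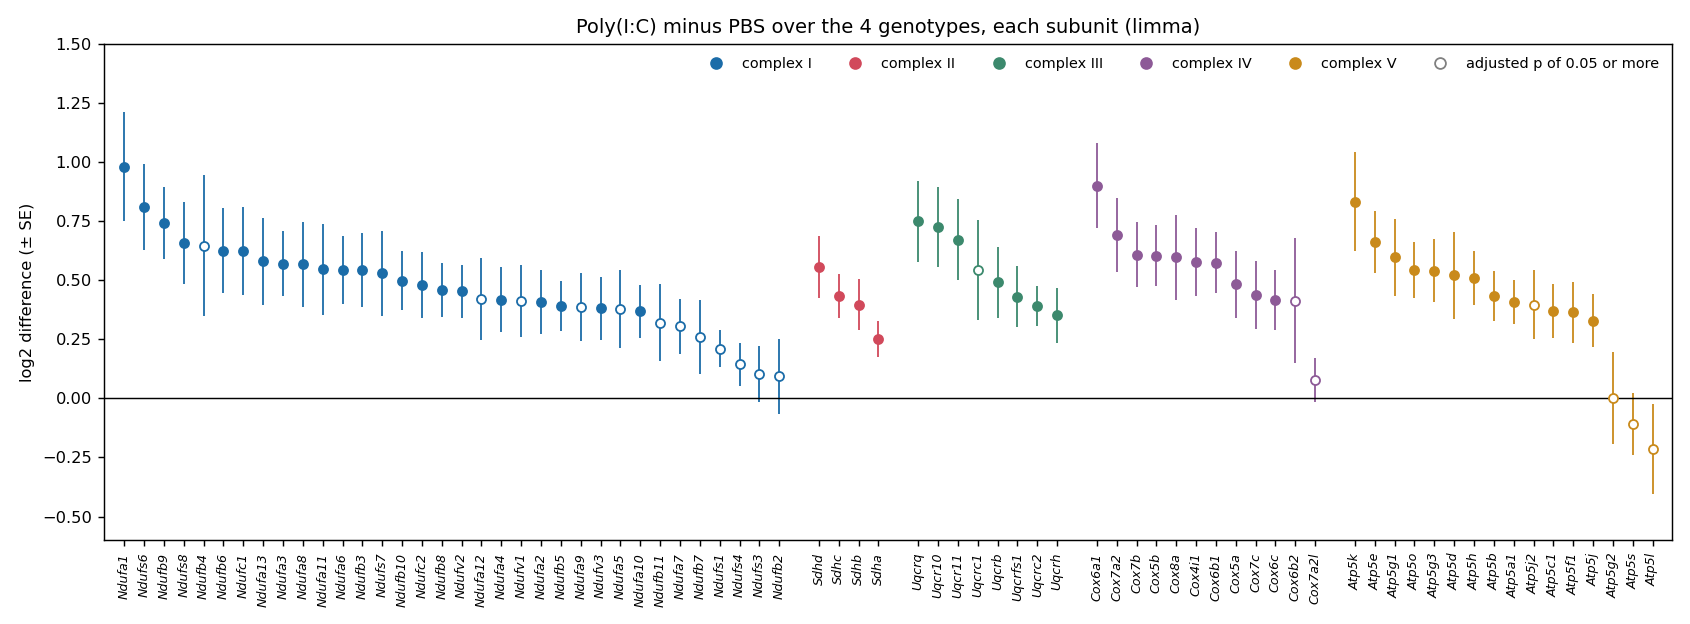
Log2 difference of poly(I:C) minus PBS over the 4 genotypes, with its standard error from limma, for the tested members ordered within complexes I to V (1 not shown). Filled circles passed the adjusted p of 0.05, and Atp5s and Atp5l are the 2 members below 0.

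The shares of the complexes in the summed level were set side by side without a test, and that of complex IV differed most. Complex IV took 14.7% ± 0.65 of the members' sum in poly(I:C) libraries and 13.8% ± 0.69 in PBS libraries (SD, n = 10 and 14). Complex I took 25.06% ± 0.50 with poly(I:C) and 25.45% ± 0.84 with PBS. Complex II took 8.86% ± 0.31 with poly(I:C) and 9.28% ± 0.50 with PBS. Complex III took 10.31% ± 0.46 with poly(I:C) and 9.98% ± 0.54 with PBS. Complex V took 41.1% ± 0.85 with poly(I:C) and 41.5% ± 0.68 with PBS, and the ranges overlapped for each of these complexes. Counting Ndufa4 with complex IV gave 11 of 13 members higher there and 22 of 34 in complex I.

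Within single genotypes the summed level of all rows was 14210.03 ± 2497 normalized counts in FancgKO poly(I:C) libraries and 11269 ± 2072 in FancgKO PBS libraries (SD, n = 3 and 4). It was 14618.5 ± 2149 in WT poly(I:C) libraries and 10819 ± 1783 in WT PBS libraries (SD, n = 3 and 4). The treatments overlapped in both of these genotypes. The sums were 11263 and 16846 in FancgKO_Mdm4Tg poly(I:C) libraries, against 10451, 10226 and 10594 in FancgKO_Mdm4Tg PBS libraries. They were 12626 and 14382 in Mdm4Tg poly(I:C) libraries, against 8739, 10122 and 8702 in Mdm4Tg PBS libraries, so that neither transgenic genotype overlapped. Single subunits were also mostly above PBS, but no member passed in the main limma fit. In FancgKO cells 72 of 75 differences were positive, with a median of 0.35, 0 were called, as were 0.0% of all genes, and 9 had an unadjusted p under 0.05. In FancgKO_Mdm4Tg cells 70 were positive, with a median of 0.40, 0 were called (0.0% of all genes), and 12 had such a p. In Mdm4Tg cells 73 were positive, with a median of 0.65, 0 were called (0.0% of all genes), and 40 had such a p. In WT cells 71 were positive, with a median of 0.49, 0 were called (0.0158% of all genes, in either direction), and 28 had such a p. edgeR and DESeq2 on the recovered reads also called 0 members in each of the 4 genotypes. The FancgKO_Mdm4Tg median was 0.039 without poly(I:C) library 8 and 0.72 without poly(I:C) library 7. With the ribosomal RNA row as a covariate the median was 0.15 in FancgKO cells, with 0 members at such a p, 0.17 in FancgKO_Mdm4Tg cells (1 member), 0.47 in Mdm4Tg cells (16 members) and 0.22 in WT cells (1 member). With log2 depth as a covariate the FancgKO median was 0.17, with 3 members at such a p.

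**Figure D4:**
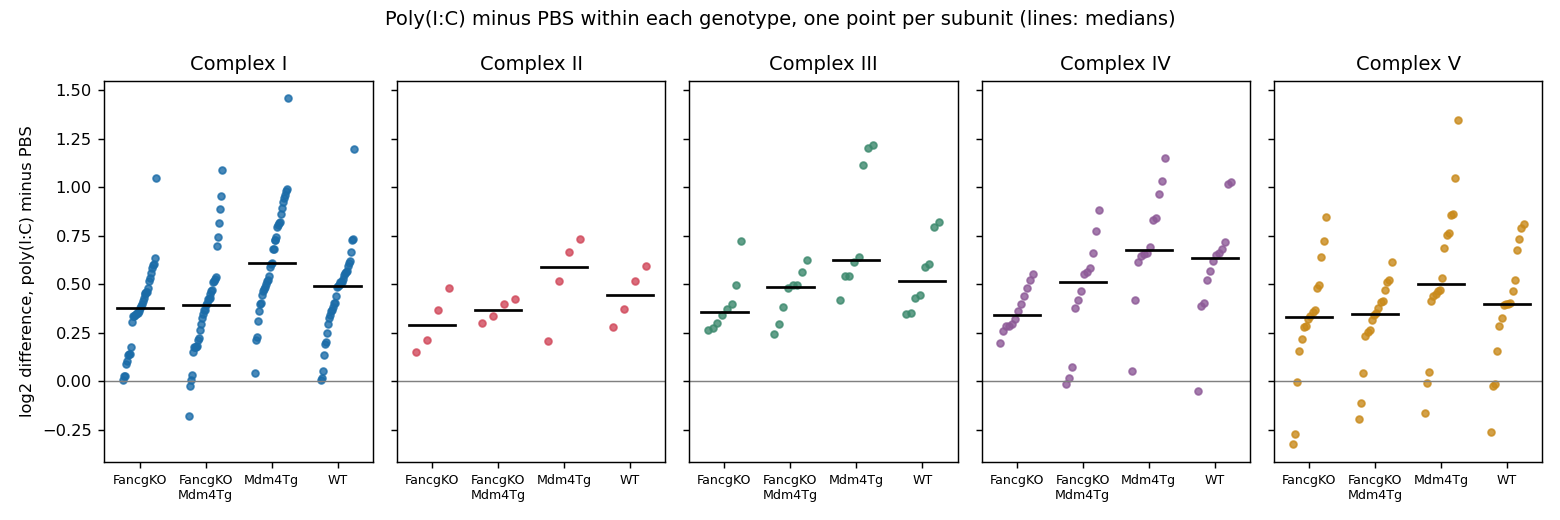
Log2 difference of poly(I:C) minus PBS in each genotype, 1 point per tested subunit, with black lines at the median of each complex. The medians of all complexes lie above 0 in the 4 genotypes, between 0.29 for complex II in FancgKO cells and 0.68 for complex IV in Mdm4Tg cells.

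Among single members in WT cells, Atp5h, of the peripheral stalk of complex V, had 0.68 ± 0.20 (limma adjusted p = 0.136). Cox6a1 had 116, 79.9 and 154 normalized counts in the WT poly(I:C) libraries 6, 7 and 8, against 43.9, 78.8, 43.5 and 62.0 in the WT PBS libraries 2, 6, 7 and 8. All poly(I:C) values lay above all PBS values, with a difference of 1.01 ± 0.33 (adjusted p = 0.153). WT libraries of the same number deviated together, and with the number as a block 6 members rose in WT cells, against 3.25% of all genes that rose. They were Ndufa1 with 1.16 ± 0.32 (blocked limma, adjusted p = 0.0300), Sdhc with 0.49 ± 0.13 (0.0246), Cox6a1 with 0.88 ± 0.23 (0.0244), Cox6c with 0.67 ± 0.20 (0.0456), Atp5e with 0.62 ± 0.19 (0.0484) and Atp5h with 0.68 ± 0.17 (0.0190). The blocked fit called 0 members without WT PBS 8, WT poly(I:C) 7 or WT poly(I:C) 8, 2 without WT poly(I:C) 6, 4 without WT PBS 2, and 6 without either of the other WT PBS libraries. In Mdm4Tg cells Cox5b had 69.2 and 99.5 normalized counts with poly(I:C), against 43.4, 35.4 and 42.1 with PBS. Its groups did not overlap, and its difference of 1.03 ± 0.28 had an adjusted p of 0.290 in the fit without a block. With the number as a block 11 members were called in Mdm4Tg cells, against 2.28% of all genes that rose. Only 2 same-number pairs stand behind that block, and they correlated at 0.356 and 0.427 in their deviations from group means.

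The size of the difference varied between the 9 pairs of libraries that share a genotype and a replicate number. Sample titles end in d_2 for libraries numbered 2, 4 and 8, and in d for those numbered 6 and 7. The labels do not explain this title suffix, and a difference between pairs numbered 8 and the others cannot be told apart from it. Libraries numbered 2 and 4 were all PBS libraries and entered no pair. Their member sums were 8647 in FancgKO 2, 10604 in FancgKO 4, 10451 in FancgKO_Mdm4Tg 2, 8739 in Mdm4Tg 2 and 9809 in WT 2. The median difference over the 75 members was 0.69 in FancgKO_Mdm4Tg, 0.88 in Mdm4Tg and 0.79 in WT libraries numbered 8. It was 0.33 in FancgKO and 0.27 in WT libraries numbered 6. In libraries numbered 7 it was -0.17 in FancgKO, 0.11 in FancgKO_Mdm4Tg, 0.41 in Mdm4Tg and 0.13 in WT cells. In FancgKO 7 only 21 of 75 members were higher with poly(I:C), the member sum being 11482 in the poly(I:C) library and 12636 in the PBS library, which had the fewest reads of all. In the other 8 pairs 51 to 73 of 75 members were higher with poly(I:C). The ribosomal RNA row was lower with poly(I:C) in all 9 pairs, by -1.26 to -2.48 on the log2 scale, and the read total was higher in 8 of them.

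**Figure D5:**
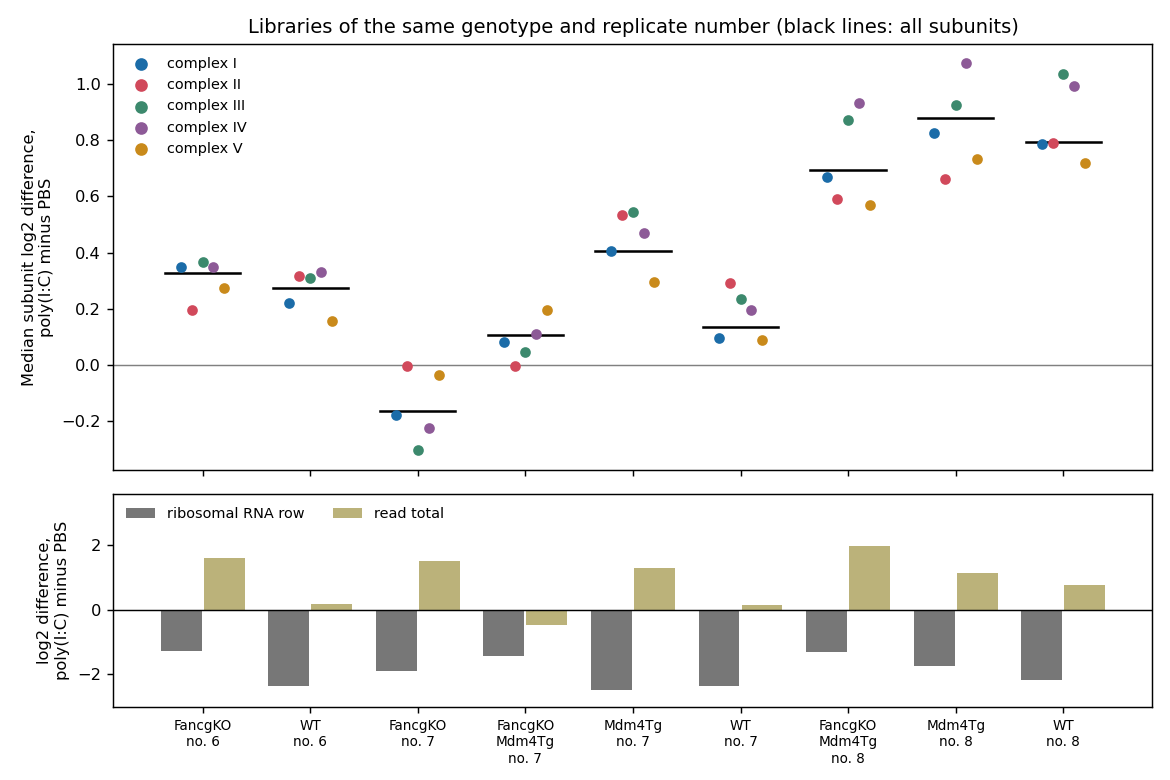
Top, median log2 difference of the subunits of each complex (coloured points) and of all 75 (black lines) between the poly(I:C) and the PBS library of the same genotype and number. Bottom, the log2 difference of the ribosomal RNA row (grey) and of the read total (tan) in the same pairs. The pairs numbered 8 lie highest in the top panel, between 0.69 and 0.88 over all members, and bear another title suffix than the others. FancgKO 7 is the only pair with a median below 0.

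Loss of Fancg did not change any subunit past the threshold. Averaged over both treatments and over mice with and without the Mdm4 transgene, 57 of 75 differences were positive, with a median of 0.06 and 0 members called in limma (0.0158% of all genes), and 1 member had an unadjusted p under 0.05. The median was -0.031 without FancgKO_Mdm4Tg poly(I:C) 8 and 0.14 without FancgKO_Mdm4Tg poly(I:C) 7. The member at such a p was Atp5g1, at 0.37 ± 0.16 (adjusted p = 1.00). Under PBS it had 28.2, 41.0, 71.6 and 71.9 normalized counts in FancgKO libraries, against 21.0, 40.7, 31.8 and 34.2 in WT libraries. The value of 28.2 lay inside the WT range and the 3 others above it. For FancgKO against WT in PBS libraries alone the median over members was 0.06, with 0 called (0.0% of all genes) and 2 at an unadjusted p under 0.05. That median was 0.11 with the replicate number as a block, where 57 of 75 were positive. It was -0.007 with the level of Xist, a gene known from female cells, as a covariate. The part of sex was not tested apart from that fit. In poly(I:C) libraries alone the median was -0.07 with and without the block, with 0 called (0.0%) and 0 at such a p. Leaving out 1 library turned the sign of both medians in some cases, and they ranged from -0.027 to 0.17 under PBS and from -0.22 to 0.095 with poly(I:C).

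The Mdm4 transgene was set against its absence on the WT and on the FancgKO background. Xist, known from female cells, had 0 to 3.93 normalized counts in the 10 transgenic libraries and 0 to 20207 in the 14 others. The part of sex in the transgene comparison was not tested apart from the fit with the Xist level. Averaged over both treatments and both backgrounds, 66 of 75 members were negative, with a median of -0.10, 0 called (0.00792% of all genes) and 1 at an unadjusted p under 0.05. That was Cox5b, at -0.28 ± 0.13 (limma adjusted p = 0.953). The members' median was -0.033 with the replicate number as a block, where 24 of 75 were positive, and -0.049 with the Xist level as a covariate. It was -0.158 with array weights and -0.157 with the ribosomal RNA row as a covariate, where 17 members had an unadjusted p under 0.05. It was -0.20 without FancgKO_Mdm4Tg poly(I:C) 8 and 0.001 without FancgKO_Mdm4Tg poly(I:C) 7. In Mdm4Tg against WT cells under PBS 68 of 75 were negative, with a median of -0.23, 0 called (0.00792%) and 6 at such a p. With the replicate number as a block this median was -0.16, where 12 of 75 were positive. With the ribosomal RNA row as a covariate it was -0.35, with 18 members at such a p. Under PBS Cox5b had 43.4, 35.4 and 42.1 normalized counts in Mdm4Tg libraries, against 55.3, 73.4, 55.2 and 56.0 in WT libraries. The groups did not overlap, with a difference of -0.56 ± 0.23 (adjusted p = 0.999). The smallest p under PBS was that of Ndufa3, an accessory subunit of complex I, at -0.78 ± 0.25 (adjusted p = 0.999). On the FancgKO background the median was -0.04 under PBS, with 0 called (0.00792%) and 1 at an unadjusted p under 0.05. With poly(I:C) it was -0.03, with 0 called (0.00792%) and 0 at such a p. Leaving out 1 library turned the sign of both in some cases, with ranges from -0.15 to 0.021 under PBS and from -0.33 to 0.30 with poly(I:C), whereas the Mdm4Tg against WT median under PBS lay between -0.32 and -0.13.

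The tests of whether the poly(I:C) difference depended on genotype also called 0 members and 0.0% of all genes. The difference in both FancgKO genotypes minus that in both genotypes with Fancg had a median of -0.19 over members, with 61 of 75 negative, and 1 member, Ndufa2, at an unadjusted p under 0.05 (-0.57 ± 0.27, adjusted p = 1.00). That median was -0.35 without FancgKO_Mdm4Tg poly(I:C) 8 and -0.012 without FancgKO_Mdm4Tg poly(I:C) 7. The difference in both Mdm4Tg genotypes minus that in both genotypes without the transgene had a median of 0.08, with 0 members at such a p. It was -0.039 without FancgKO_Mdm4Tg poly(I:C) 8, 0.27 without FancgKO_Mdm4Tg poly(I:C) 7 and 0.014 with array weights. Both tests use the same 24 libraries. edgeR and DESeq2 called 0 members in all of these genotype and interaction comparisons.

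Genes that work with the complexes also rose in part. Over all 12628 genes tested, 11.9% rose and 11.6% fell with poly(I:C) over the 4 genotypes. Of 18 genes for electron carriers and coenzyme Q synthesis 5 rose and 0 fell with poly(I:C) over the 4 genotypes, with a median of 0.21. Cyc1, the cytochrome c1 subunit of complex III that the symbol rule does not catch, averaged 164 normalized counts with poly(I:C) and 109 with PBS, a difference of 0.61 ± 0.15 (limma adjusted p = 0.00660). Of 48 assembly factors 10 rose and 0 fell, with a median of 0.23, led by Lrpprc, which stabilises mitochondrial messenger RNA (0.28 ± 0.07, adjusted p = 0.00662). Of 20 genes of the tricarboxylic acid cycle 8 rose and 0 fell, with a median of 0.25, among them Cs, the citrate synthase (0.42 ± 0.09, adjusted p = 0.00361). The counts of these lists were not tested against those of the subunits.

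Of 21 tested regulators of nuclear respiratory genes 2 rose (9.52%) and 2 fell, against 11.9% of all genes that rose and 11.6% that fell. Both counts were near the share over all genes. Nrf1 had 127 to 209 normalized counts over the 24 libraries and a difference of -0.10 ± 0.09 (adjusted p = 0.388). Gabpa, the DNA-binding subunit of GABP, had 0.03 ± 0.11 (adjusted p = 0.879), and Yy1 had 0.08 ± 0.09 (adjusted p = 0.528). Gabpb1, the partner subunit of GABP, fell by 0.46 ± 0.12 (adjusted p = 0.0108), and so did the coactivator Ppargc1a, at -1.12 ± 0.38 (adjusted p = 0.0355) and a median of 4.19 normalized counts. Myc, which drives growth genes, rose by 0.34 ± 0.09 (adjusted p = 0.0132), and Hcfc1, a chromatin cofactor, by 0.28 ± 0.07 (adjusted p = 0.0115).

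Other lists moved with poly(I:C) beside the subunits, in the same fit in which 11.9% of all genes rose and 11.6% fell. Of 12 granulocyte and monocyte progenitor markers 11 rose, and their summed level was 6360 to 24007 normalized counts in poly(I:C) libraries (median 12641) and 1838 to 14730 in PBS libraries (median 3249). Of 12 tested erythroid and megakaryocyte markers 6 rose and 0 fell, with sums of 1971 to 3048 with poly(I:C) and 1342 to 2346 with PBS. Of 14 tested stem cell markers 10 fell and 1 rose, with sums of 2889 to 4862 with poly(I:C) and 3618 to 6436 with PBS. Of 8 lymphoid progenitor markers 5 fell and 0 rose, with sums of 2061 to 3800 with poly(I:C) and 3000.3 to 7372 with PBS. Of 11 mature lymphocyte markers 2 were tested and 1 rose, Nkg7, with list sums of 211 to 393 with poly(I:C) and 131 to 270.2 with PBS. Of 10 mature myeloid markers 3 were tested, of which S100a8 and Adgre1 rose and Csf3r fell, with list sums of 144 to 254 with poly(I:C) and 154 to 307 with PBS. Of 19 cell cycle genes 12 rose and 0 fell, with a median of 0.30. Of 84 tested genes for cytosolic ribosomal proteins 27 rose and 0 fell, with a median of 0.34 and sums of 43966 to 58223 with poly(I:C) and 27971 to 56490.4 with PBS. The part of cell composition and of these lists in the rise of the subunits was not tested.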

How the data were processed

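Polyadenylated RNA was sequenced in 24 libraries of 8 groups, assigned from the labels' genotype and treatment. The authors deposited normalized counts, a signal with 1 row per gene. The submitters' processing notes name STAR and mm10, while the counter and the normalization are not given in the sources used here. Dividing each library by the worth of 1 read gave whole reads for 100% of values (relative tolerance 1e-06).

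The main test, limma 3.58.1 in R 4.3.3, used log2(value + 1), a trend of variance with level, 8 group means and all 24 libraries, with Benjamini-Hochberg adjustment at 0.05 over 12628 genes. A pseudocount of 1 understates changes of low genes. edgeR 4.0.16 and DESeq2 1.42.0 were run on the recovered reads, and the fits were tested on simulated data. Further alternatives were a pseudocount of 5, no filter, TMM scaling, quantile normalization, array weights, the replicate number, the title suffix and Xist as terms, and each library left out. Fits with ribosomal RNA or depth as a term were added after the data were seen.

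The members, lists and tests were chosen with earlier results of these data known. Named members were the 3 per complex with the smallest p among those with a mean of at least 50 in each of 4 comparisons, isoform families, core subunits and every member called where at most 5 were. Ndufa1, Ndufa2, Ndufa3, Ndufb2, Ndufb4, Ndufb6, Ndufb9, Ndufs6, Atp5k, Atp5l and Atp5s fall outside this rule and were named after their values were seen. Also outside it, Ndufs5 and Ndufa13 were named for rows below the filter, and Cox7c for its shared windows. Same-numbered libraries of WT cells correlated at 0.231 to 0.448 in their deviations from group means (3 pairs), so the numbers were taken to pair them. Over the 9 pairs of both treatments the lowest correlation was 0.0528. Over all groups 61 same-number pairs had a median of 0.343, and 189 pairs of other numbers had -0.163. The 3 pairs of FancgKO and WT ran from 0.218 to 0.528 under PBS and from 0.392 to 0.617 with poly(I:C). Those of Mdm4Tg and WT under PBS ran from 0.293 to 0.378. Main tests of these genotype comparisons ignore the numbers, and the block also called 0 members there. Lengths are those of the main transcript in GENCODE M21, and promoters are from RefSeq. The single values of 1 member are not reported here. Counting error alone is larger in shallow libraries, where the 80 rows held 3868 reads at the least.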

Additional observations from a re-analysis of the deposited data

Results flagged for a closer look

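In 104 tests of a single library standing apart in a group of 4 libraries, 4 results were flagged. That is a smaller share than the about 1 in 20 that chance alone flags. All 4 are subunits of complex IV. Only WT PBS and FancgKO PBS hold 4 libraries, so no other group could be flagged. Cox5b in WT PBS 6 was the highest, at 73.4 normalized counts, against 55.2 to 56.0 in the other 3. Cox6b1 in the same library was also the highest, at 129 against 83.3 to 90.3. Cox5b in FancgKO PBS 2 was the lowest, at 48.6 against 76.4 to 78.4. Cox6c in that library was also the lowest, at 111 against 183 to 189.9. WT PBS 6 had the highest sum of all members among PBS libraries, and FancgKO PBS 2 the lowest.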

How the results depend on the processing

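Averaged over genotypes, the count of members that poly(I:C) changed was 46 to 66 under the 11 alternatives other than the covariates for ribosomal RNA (0) and log2 depth (3), and all called members were higher. Leaving out each library gave 27 to 61, the lowest without FancgKO_Mdm4Tg poly(I:C) 8. The replicate block gave 57, and 40 to 63 with each library left out as well. Over all genes, 2019 rose with the replicate block, 1815 in edgeR and 1754 in DESeq2, against 1509 in the main fit. The members' median was 0.27 to 0.52 under the alternatives and 0.38 to 0.54 without each library. In WT cells 0 members were called, against 6 with the replicate block (3.25% of all genes rose), 1 with the title suffix (1.14%) and 27 with array weights (6.16%), 0 to 1 without each library, and 0 to 6 in the block without each library (2 without WT poly(I:C) 6, 4 without WT PBS 2). In Mdm4Tg cells 0 were called, against 11 with the replicate block (2.28% of all genes rose), 19 with array weights (2.72%) and 0 to 20 in the block without each library. Cox5b there had 1.00 ± 0.23 with the block (limma adjusted p = 0.0184). The same-number pairs of these libraries correlated at 0.356 and 0.427 in their deviations from group means, but they are only 2. The FancgKO_Mdm4Tg median of 0.40 ranged from 0.039 to 0.72 without each library. The median of the transgene on the FancgKO background with poly(I:C), -0.03, ranged from -0.33 to 0.30. The cause of these changes was not tested. In the other genotype and interaction comparisons, every alternative called 0 members. Depth limits low rows: Cox7a1 and Cox4i2 cannot be compared.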
